A study of Caenorhabditis elegans with 6 samples.

Results

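The heterochronic genes lin-14, lin-28, lin-29, lin-41, lin-42, lin-46, hbl-1, daf-12, blmp-1 and alg-1 were followed in 6 RNA-seq libraries of whole Caenorhabditis elegans animals. These 10 genes were taken by name from the 46778 gene identifiers of the count tables, and all 10 passed the filter on low counts, as did 15331 genes in all. The set was chosen with earlier results of these data known, so counts over it are a description and not a test. Animals had been raised from egg to the L4 stage, the last larval stage, on Escherichia coli. The groups held 2 libraries each. They were UM10 on csgA(-) bacteria, UM10 on K12 BW25113 bacteria, and wild-type N2 on K12. UM10 carries unkIs7, a transgene for the A53T form of human alpha-synuclein under the neuronal aex-3 promoter, and N2 carries none. The csgA(-) bacteria lack the gene for the main curli amyloid subunit. The labels do not say whether the libraries came from separate cultures, so p-values measure only the spread between these libraries, which may be technical. The transgene was not in the count tables and could not be checked.

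For UM10 the food was taken from the sample titles, where WT was read as K12. The deposited tables are named the other way round. If those were right, the values of the UM10 groups would be exchanged and every food difference would change sign. The comparison of both UM10 groups together with N2 does not depend on this. No N2 library came from csgA(-) bacteria. In that comparison, and in that of UM10 on csgA(-) with N2, strain and food therefore cannot be told apart. By the titles, only UM10 on K12 and N2 shared a food.

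Heterochronic genes set the order in which larval cells pass from one stage programme to the next. Early in larval life LIN-14 and then LIN-28 and HBL-1 keep cells in the programmes of the first stages. The microRNAs lin-4 and let-7, with relatives of let-7, are loaded into the Argonaute ALG-1 and lower these factors and LIN-41 as larvae grow. Late in the L4 stage, the fall of LIN-41 releases LIN-29, which drives the switch of the skin to its adult form. LIN-42, the worm relative of the clock protein PERIOD, peaks once in every moulting cycle. Whole animals were measured, so fewer cells of a type and less RNA per cell cannot be told apart.

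Libraries held 22657727 to 23532382 gene counts. N2 replicate 1 stood apart, with a scaling factor (trimmed mean of M values, TMM) of 0.61, against 1.02 to 1.2 in the other libraries. Replicates of each group differed by more than counting error (chi-square per degree of freedom 119 to 172 across genes). Levels below are CPM, read counts relative to the TMM-scaled library size.

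Of the 10 genes, lin-42 differed most between UM10 and N2. Its level fell 4.66-fold over both UM10 groups, and it was the 1 gene of the 10 called (edgeR quasi-likelihood test, Benjamini-Hochberg adjusted p under 0.05 over all genes). In the same comparison 10.3% of all genes tested were called, so 1 of 10 is near the background. Next came lin-41, 3.26-fold above N2 with an adjusted p of 0.0543, and lin-29 and blmp-1, at 2.01-fold and 1.89-fold below N2 without a call. Libraries of UM10 and N2 did not overlap for 6 of the 10 genes, against 37.3% of all genes. Of these lin-28 and lin-41 lay above N2, against 21.1% of all genes, and lin-29, lin-42, blmp-1 and alg-1 lay below it, against 16.2%. At an unadjusted p under 0.05 there were 5 of the 10, against 28.3% of all genes. The median log2 fold change was -0.36 over the 10 genes and -0.04 over all genes.

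**Figure D1:**
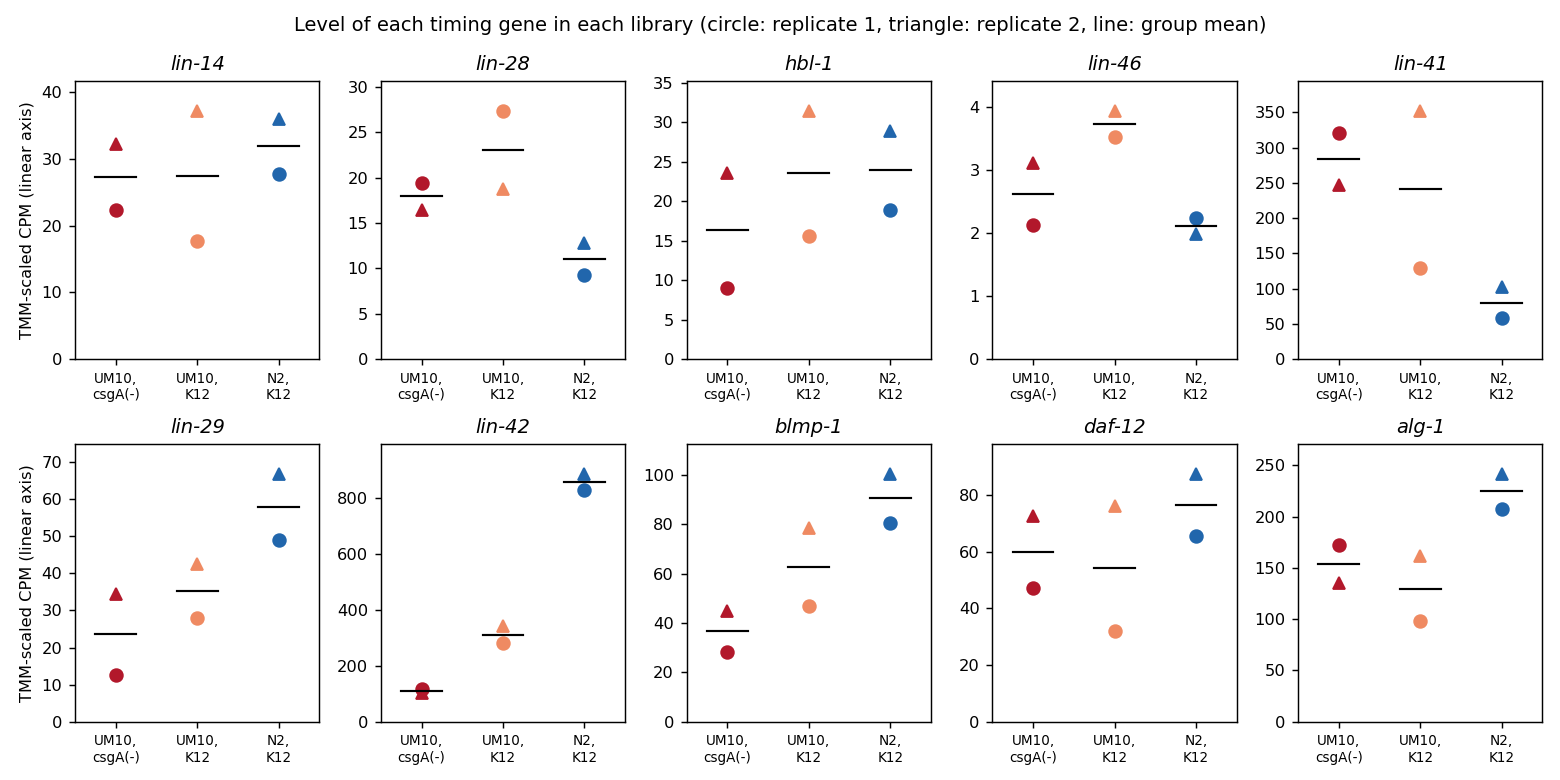
TMM-scaled CPM (linear axes starting at 0) of the 10 genes in each of the 6 libraries, with circles for replicate 1, triangles for replicate 2 and lines for the mean of each group of 2. The lin-42 panel shows 3 separate levels, near 109 CPM in UM10 on csgA(-), 312 in UM10 on K12 and 861 in N2, while the groups overlap for lin-14, hbl-1 and daf-12.

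The genes of the early programmes came first in the developmental order. LIN-14 is a nuclear factor of the first larval stages and the classical target of lin-4. The lin-14 gene (WBGene00003003, chromosome X, 11465560 to 11485871, plus strand, WBcel235) was at 22.3 and 32.3 CPM in UM10 on csgA(-), 17.7 and 37.2 in UM10 on K12, and 27.8 and 35.97 in N2. All 3 groups overlapped. Over both UM10 groups the log2 fold change was -0.22 (SE, standard error, 0.38), with a 95% interval of -1.05 to 0.61. Exons of lin-14 share up to 108 bases with snoRNA genes inside it, and how shared reads were counted is not given in the sources used here.

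LIN-28 is an RNA-binding protein that blocks the maturation of let-7. The lin-28 gene (WBGene00003014, I, 8407630 to 8410804, minus strand) had 19.4 and 16.4 CPM in UM10 on csgA(-), 27.4 and 18.8 in UM10 on K12, and 9.27 and 12.8 in N2. Each UM10 library was above both N2 libraries, yet the gene was not called. The log2 fold change over both UM10 groups was 0.88 (SE 0.37, unadjusted p 0.0372, adjusted p 0.147 by edgeR). Within a library, where scaling has no part, the ratio of lin-28 to lin-14 (CPM per kb of exon) was 2.19 and 1.29 in UM10 on csgA(-), 3.896 and 1.27 in UM10 on K12, and 0.841 and 0.897 in N2. The UM10 ratios were therefore all above those of N2, with UM10 on K12 replicate 1 the highest. Markers of oocytes were higher in UM10, and per 100 CPM of them lin-28 was lower in every UM10 library than in N2, as given below. The part of oocyte RNA in the ratio to lin-14 was not tested. Exons of lin-28 share 16 bases with F02E9.1, a gene on the other strand.

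HBL-1, a zinc finger factor related to fly Hunchback, acts after LIN-14 and is a target of the let-7 family. The hbl-1 gene (WBGene00001824, X, 5822142 to 5827755, plus strand) was at 8.998 and 23.6 CPM in UM10 on csgA(-), 15.6 and 31.4 in UM10 on K12, and 18.9 and 28.9 in N2. Its replicates differed 2.62-fold in UM10 on csgA(-), more than any pair of group means, and it was not called. LIN-46, a protein related to gephyrin, acts against HBL-1 downstream of LIN-28. The lin-46 gene (WBGene00003031, V, 12968855 to 12970730, plus strand) had the lowest level of the 10, with 52 and 81 counts in UM10 on csgA(-), 96 and 107 in UM10 on K12, and 31 and 46 in N2. The corresponding levels were 2.14 and 3.11, 3.52 and 3.94, and 2.25 and 1.99 CPM in the same order of groups and replicates. UM10 on K12 lay above the rest, without a call against N2 (log2 fold change 0.82, SE 0.53, adjusted p 0.422).

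Of the late regulators, LIN-41 is a TRIM-NHL protein that represses the mRNA of lin-29 before the L4 stage and is the best known target of let-7. It is also made in oocytes, where it holds back maturation. The lin-41 gene (WBGene00003026, I, 9334800 to 9342496, minus strand) was at 321 and 248 CPM in UM10 on csgA(-), 129.9 and 352 in UM10 on K12, and 57.9 and 102 in N2. No UM10 library reached down to N2, but UM10 on K12 replicate 1 lay close to it, and replicates of that group differed 2.71-fold. The log2 fold change was 1.71 over both UM10 groups (SE 0.51, adjusted p 0.0543), 1.83 on csgA(-) (0.56, 0.0611) and 1.59 on K12 (0.55, 0.152). Without N2 replicate 1 the first of these was 1.255, with an adjusted p of 0.318. The value on K12 was 0.781 when UM10 on K12 lost replicate 2.

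LIN-29 is the zinc finger factor at the end of the pathway that switches the skin to its adult programme. The lin-29 gene (WBGene00003015, II, 11917642 to 11935343, minus strand) had 12.7 and 34.6 CPM in UM10 on csgA(-), 28.0 and 42.5 in UM10 on K12, and 49.03 and 66.9 in N2. N2 was highest and UM10 on csgA(-) replicate 1 lowest. For both UM10 groups together the log2 fold change was -1.01 (SE 0.41, adjusted p 0.132). On leaving out each library in turn it ran from -1.44 (adjusted p 0.0375, without UM10 on csgA(-) replicate 2) to -0.774 (0.377, without N2 replicate 2), and 5 of the 6 fits gave no call. Per kb of exon, the ratio of lin-29 to lin-41 within a library was 0.0827 and 0.291 in UM10 on csgA(-), 0.4503 and 0.252 in UM10 on K12, and 1.77 and 1.36 in N2. In N2 lin-29 was thus above lin-41, and in every UM10 library it was below. Oocytes hold lin-41 RNA too, and their markers were higher in UM10, as given below. The part of oocyte RNA in this ratio was not tested.

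The gene of the moulting rhythm, lin-42 (WBGene00018572, II, 1233236 to 1252359, minus strand), has 7 annotated transcripts, which gene counts do not tell apart. It was at 117 and 102 CPM in UM10 on csgA(-), 283 and 341 in UM10 on K12, and 832 and 889 in N2. The 3 groups did not overlap, and replicates differed by at most 1.204-fold. Over both UM10 groups the log2 fold change was -2.22 (SE 0.37, adjusted p 0.00777), and the call was kept on leaving out any 1 of the 6 libraries (-2.35 to -2.16, adjusted p 0.0191 to 0.0489). In raw counts N2 replicate 1 had 11485 and N2 replicate 2 had 20570, a gap that TMM scaling closed. All 4 UM10 libraries were lower before scaling as well, at 2836 and 2654 on csgA(-) and 7728 and 9262 on K12. Exons of lin-42 share no base with another annotated gene.

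**Figure D2:**
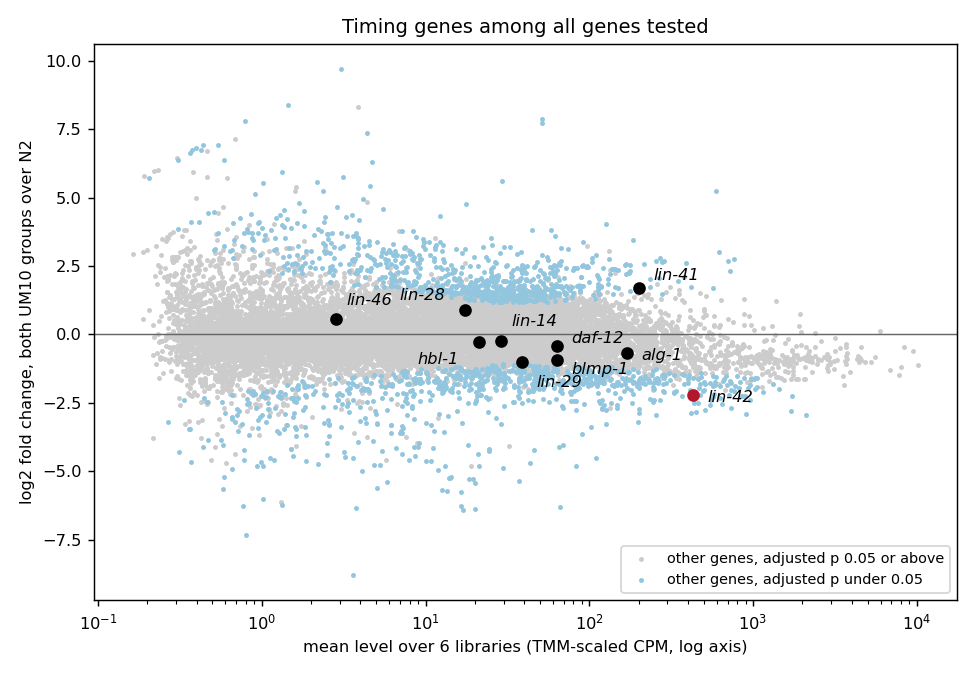
Log2 fold change of both UM10 groups over N2 against the mean level over the 6 libraries (TMM-scaled CPM, log axis) for all 15331 genes tested, with the 10 timing genes as large points, red for lin-42 (adjusted p under 0.05) and black for the rest. Small blue points are other genes called and grey points are genes not called. Among genes of its level lin-42 lies at the lower edge, and lin-41 lies above most.

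BLMP-1 is a zinc finger factor related to mammalian Blimp-1 that binds genes of the moulting cycle and times gonad migration. The blmp-1 gene (WBGene00003847, I, 10409302 to 10414773, plus strand) had 28.4 and 45.0 CPM in UM10 on csgA(-), 46.9 and 78.7 in UM10 on K12, and 80.5 and 101 in N2. N2 was above every UM10 library. Its log2 fold change was -0.91 over both UM10 groups (SE 0.36, adjusted p 0.12) and -1.30 on csgA(-) against N2 (0.43, 0.0787). DAF-12 is a nuclear receptor for the steroid dafachronic acid that turns on let-7 relatives in good food. The daf-12 gene (WBGene00000908, X, 10635908 to 10666875, plus strand) was at 47.0 and 72.5 CPM in UM10 on csgA(-), 31.9 and 76.2 in UM10 on K12, and 65.5 and 87.5 in N2. Its groups overlapped, and the log2 fold change of -0.43 over both UM10 groups had a 95% interval of -1.31 to 0.46.

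ALG-1 is an Argonaute that carries microRNAs to their targets. The alg-1 gene (WBGene00000105, X, 13949110 to 13956261, plus strand) had 172 and 136 CPM in UM10 on csgA(-), 98.4 and 161 in UM10 on K12, and 207 and 242 in N2. Both N2 libraries were above all UM10 libraries, but the log2 fold change of -0.67 was not called (SE 0.37, adjusted p 0.265). Its close relative alg-2 was at 40.6 and 51.4 CPM in UM10 on csgA(-), 32.6 and 63.1 in UM10 on K12, and 77.8 and 62.1 in N2, also without a call.

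Set against N2 one group at a time, UM10 on csgA(-) showed the larger gap in lin-42. The log2 fold change was -2.98 (SE 0.48, adjusted p 0.00927), a 7.88-fold lower level. Without UM10 on csgA(-) replicate 1 it was -3.21 and the adjusted p was 0.0556, so that call was lost with fewer libraries although the difference was no smaller. It was again the 1 gene of the 10 called in the main edgeR fit, while DESeq2 called 4 (lin-29, lin-41, lin-42 and blmp-1). These 4 were also called by edgeR without the filter on low counts and with a term for the replicate number. By edgeR 9.05% of all genes were called, 3.95% higher and 5.11% lower. At an unadjusted p under 0.05 there were 4 of the 10 (lin-29, lin-41, lin-42 and blmp-1), against 28.4% of all genes, and 6 of 10 had no overlap with N2, against 60.8%. These were lin-28 and lin-41 above N2, against 34.3% of all genes, and lin-29, lin-42, blmp-1 and alg-1 below it, against 26.5%. The median log2 fold change was -0.45 over the 10 genes and 0.07 over all genes.

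On K12, which is the same food by the titles, UM10 had a 2.76-fold lower level of lin-42 than N2 (log2 fold change -1.46, SE 0.45, adjusted p 0.116). None of the 10 was called in the main edgeR fit, where 2.75% of all genes were (2.2% higher, 0.541% lower). DESeq2 called lin-41 and lin-42, and edgeR without the filter on low counts called lin-41. At an unadjusted p under 0.05 there were 3 (lin-28, lin-41 and lin-42), against 19.1% of all genes. The libraries did not overlap for 7 of the 10, against 50.4% of all genes. Of these lin-28, lin-41 and lin-46 lay above N2, against 25.9% of all genes, and lin-29, lin-42, blmp-1 and alg-1 lay below it, against 24.5%. The median log2 fold change was -0.36 over the 10 genes and -0.09 over all genes. Both single-group comparisons use the same N2 libraries, so their values are not independent.

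**Figure D3:**
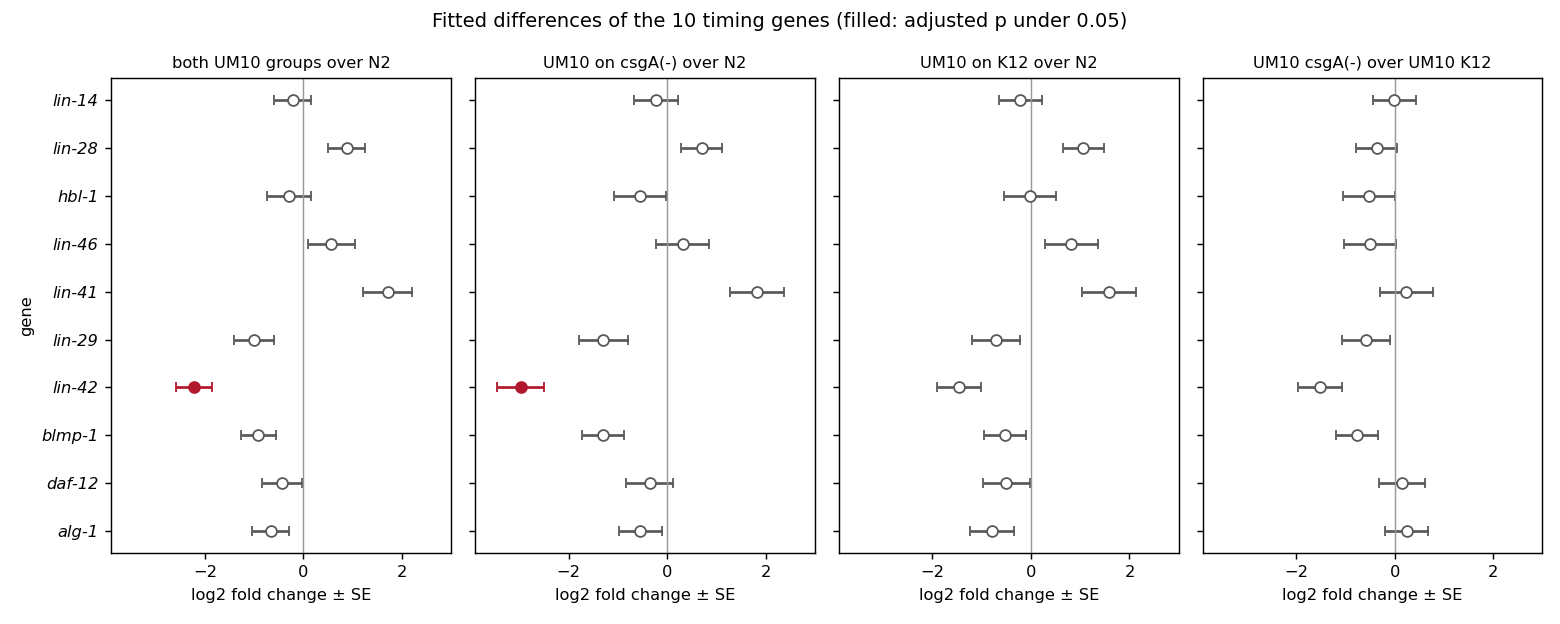
Fitted log2 fold changes with standard errors of the 10 genes in 4 comparisons, with filled red points where the adjusted p was under 0.05. The points of lin-42 are at -2.22 for both UM10 groups over N2, -2.98 for UM10 on csgA(-) over N2, -1.46 for UM10 on K12 over N2 and -1.52 for csgA(-) over K12 within UM10, and only the first of these and the second are filled.

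Between the foods within UM10, lin-42 was 2.86-fold lower on csgA(-) than on K12 as labelled (log2 fold change -1.52, SE 0.45, unadjusted p 0.00636, adjusted p 0.312 by edgeR). By edgeR 0 of the 10 genes and 0% of all genes were called. DESeq2 called lin-42 (adjusted p 0.0123). At an unadjusted p under 0.05 there was 1 of the 10, against 9.92% of all genes. Libraries on csgA(-) and K12 did not overlap for 3 of the 10, against 40.7% of all genes. These were lin-42, lin-46 and blmp-1, all lower on csgA(-), against 19% of all genes. For lin-14 the difference was -0.0093 with a 95% interval of -0.97 to 0.95, so a change of nearly 2-fold either way was not excluded. Larger differences could go uncalled as well, as that of lin-42 did by edgeR. For lin-41 and daf-12 the intervals ran from -0.94 to 1.42 and from -0.89 to 1.18.

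Levels of different genes were compared per kb of exon. In UM10 on csgA(-) lin-41 was first at 59.1 ± 10.7 CPM per kb (SD, n = 2), followed by lin-42 at 27.2 ± 2.58 and alg-1 at 23.01 ± 3.87, and the last 2 of these overlapped. In UM10 on K12 lin-42 led at 77.9 ± 10.2, and its libraries overlapped those of lin-41 at 50.1 ± 32.7. In N2 lin-42 stood alone at 215 ± 10.1, alg-1 was next at 33.5 ± 3.695, and lin-41 was in sixth place at 16.7 ± 6.55, within the spread of daf-12 at 17.2 ± 3.51. In every group hbl-1 and lin-46 were the lowest, at 3.64 to 5.34 and 1.55 to 2.73 CPM per kb. The ratio of lin-42 to lin-41 per kb within a library was 0.436 and 0.494 in UM10 on csgA(-), 2.62 and 1.16 in UM10 on K12, and 17.2 and 10.4 in N2. These ratios do not depend on scaling and separated all 3 groups. The part of oocyte RNA in their lin-41 level was not tested.

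Patterns over the 6 libraries were compared as the root mean square difference of log2(CPM + 0.5) centred on each gene's mean. Among the 10 genes the closest pair was lin-14 and daf-12 (0.15), followed by lin-29 and blmp-1 (0.23). By this measure lin-42 and lin-41 were far from most of the others, with 7 and 6 genes of the set at more than 1 from them. Among 8035 other genes with a mean of at least 10 CPM, the nearest was atic-1 for lin-42 (0.22), pqn-82 for lin-41 (0.14) and pigu-1 for lin-28 (0.036). For lin-29 and blmp-1 it was slo-1 (0.16) and gly-6 (0.12). For lin-14, hbl-1, lin-46, daf-12 and alg-1 it was ten-1, cbs-1, gakh-1, par-1 and dnj-29, at 0.061 to 0.16. With 6 libraries and so many candidates, close patterns are found for any gene.

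Other genes of the timing pathway were given as a list of 20, all of which passed the filter. Over both UM10 groups 0 were called higher and 2 lower, against 5.07% and 5.25% of all genes, with a median log2 fold change of -0.43. The genes called were mab-10, a cofactor of LIN-29, and mab-3, a male development factor that LIN-41 represses. Levels of mab-10 were 35.99 and 38.4 CPM in UM10 on csgA(-), 39.7 and 57.3 in UM10 on K12, and 80.7 and 114 in N2 (log2 fold change -1.197, SE 0.33, adjusted p 0.0429). Levels of mab-3 were 1.11 and 2.30 CPM in UM10 on csgA(-), 1.47 and 3.09 in UM10 on K12, and 4.42 and 11.8 in N2 (-2.04, 0.54, 0.0372). Both were lower in every UM10 library than in N2. The call of mab-10 was lost on leaving out any 1 library (adjusted p 0.0737 to 0.142), and that of mab-3 without each library but UM10 on csgA(-) replicate 2 (0.0214 to 0.266 over all 6). Without N2 replicate 2 the log2 fold change of mab-3 was -1.169.

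The kinase kin-20, a relative of the clock kinase doubletime that acts with LIN-42, had 48.6 and 61.8 CPM in UM10 on csgA(-), 40.1 and 68.3 in UM10 on K12, and 101 and 87.7 in N2. It was not called (log2 fold change -0.79, adjusted p 0.16). The nuclear receptor nhr-23, which drives each moult, was at 71.5 and 76.8 CPM in UM10 on csgA(-), 39.3 and 92.8 in UM10 on K12, and 34.3 and 75.01 in N2, with overlap between all groups. The receptor nhr-85, at 1.15 and 5.299, 1.54 and 3.28, and 4.42 and 2.81 CPM in the same order, overlapped too. On csgA(-) and on K12 taken singly 0 of the 20 were called, against 9.05% and 2.75% of all genes. The list's median was -0.47 in both, against 0.07 and -0.09 over all genes.

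Among 12 genes of the microRNA machinery, 1 was called over both UM10 groups, near the 10.3% of all genes called. It was drsh-1, higher in UM10, which encodes the nuclease Drosha that starts microRNA processing. This gene was at 25.4 and 22.7 CPM in UM10 on csgA(-), 30.1 and 28.5 in UM10 on K12, and 4.20 and 11.6 in N2 (log2 fold change 1.73, SE 0.45, adjusted p 0.0354). The call held only without N2 replicate 2 or without UM10 on csgA(-) replicate 2. Its log2 fold change was 1.11 without N2 replicate 1 and 2.65 without N2 replicate 2. The list's median was 0.27. The precursor genes of lin-4, mir-48, mir-84, mir-241, mir-237, mir-793, mir-794 and mir-795 together had 0 to 2 counts in a library, so poly-A RNA gave no measure of these microRNAs, and let-7 was not matched to a gene identifier.

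Collagen genes of the skin were described beside lin-29 and lin-42. A list of 7 collagen genes was taken for expression in L4 animals, and its genes need not serve the L4 cuticle. Like the other lists, it was chosen with earlier results of these data known, so its counts are a description and not a test. All 7 were called lower over both UM10 groups, against 5.25% of all genes, with a median log2 fold change of -1.99. For bli-1, whose product builds the struts of the adult cuticle, the levels were 155 and 69.0 CPM in UM10 on csgA(-), 179 and 239 in UM10 on K12, and 408 and 915 in N2. Next to its log2 fold change of -2.11 stood -2.04 for col-138, -2.02 for col-63 and -1.99 for col-49. Without N2 replicate 2 the value of bli-1 was -1.42 (adjusted p 0.0851). On csgA(-) alone 4 were called, against 5.11% of all genes, and on K12 alone 0, against 0.541%, with medians of -2.04 and -1.76. The count of 7 was 0 without N2 replicate 1 and also when UM10 on K12 lost replicate 2. It was 2 without UM10 on csgA(-) replicate 2 and 3 when UM10 on K12 lost replicate 1, with all 7 fold changes below 0 each time. On csgA(-) alone it was 1 without N2 replicate 1 and 0 without either csgA(-) library.

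Of 4 adult collagens, col-7 and rol-1 were called lower over both UM10 groups, against 5.25% of all genes, with log2 fold changes of -1.97 and -2.24. The collagen col-19, the usual reporter of LIN-29 activity, was not called. Its levels were 1673 and 949 CPM in UM10 on csgA(-), 1143 and 1097 in UM10 on K12, and 1487 and 572 in N2, so the N2 libraries lay on both sides of UM10 on K12. For col-7 the levels were 21.9 and 47.6 CPM in UM10 on csgA(-), 37.8 and 16.2 in UM10 on K12, and 191 and 49.1 in N2. Its difference rested on N2 replicate 1, without which the log2 fold change was -0.749 (adjusted p 0.547). The calls of col-7 and rol-1 were each lost in 4 of the 6 fits without 1 library. On csgA(-) alone 1 of the 4, rol-1, was called, against 5.11% of all genes called lower, and on K12 alone 0, against 0.541%.

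The genes of the moulting cycle act where the old cuticle is shed and the new one is made. Of 10 such genes, 3 were called lower over both UM10 groups (mlt-8, mlt-10 and ptr-4), 5 on csgA(-) against N2 (with mlt-11 and nas-37 added) and 0 on K12 against N2. The shares of all genes called lower were 5.25%, 5.11% and 0.541% in these comparisons. As with the collagens, the list was chosen with earlier results of these data known. The list's medians were -1.23, -1.99 and -0.63, and all 10 fold changes were below 0 in each comparison. On K12, however, 4 of the 10 were above 0 without N2 replicate 2 and 2 were when UM10 on K12 lost replicate 1. For mlt-10, a nematode-specific moulting gene, the levels were 28.6 and 19.5 CPM in UM10 on csgA(-), 67.8 and 95.5 in UM10 on K12, and 112 and 419 in N2. Without N2 replicate 2 the log2 fold change of mlt-10 over both UM10 groups was -1.34, against -2.58 with all libraries. The levels of mlt-8 were 40.4 and 53.2, 103 and 117, and 251 and 262 CPM in the same order. Between the foods 0 were called, although all 10 were lower on csgA(-), with a median of -1.35. The count of 3 was 1 without either N2 library or UM10 on K12 replicate 1. The count of 5 was 2 without N2 replicate 2, 1 without UM10 on csgA(-) replicate 1 and 3 without replicate 2.

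Summed over the 10 moulting genes, the level was 515 and 369 CPM in UM10 on csgA(-), 685 and 1569 in UM10 on K12, and 1453 and 2727 in N2. Per 100 CPM of these genes, lin-42 had 22.6 and 27.6 in UM10 on csgA(-), 41.4 and 21.7 in UM10 on K12, and 57.2 and 32.6 in N2, with UM10 on K12 overlapping both other groups. Per 100 CPM of the 7 collagens listed for L4, lin-42 was at 5.08 and 9.03 in UM10 on csgA(-), 12.4 and 24.8 in UM10 on K12, and 12.2 and 14.6 in N2. By that measure UM10 on K12 was not below N2, and UM10 on csgA(-) was. The 7 markers of hypodermis and seam, the tissue that makes the cuticle, summed to 130.2 and 201 CPM in UM10 on csgA(-), 212 and 278 in UM10 on K12, and 256 and 249 in N2. Per 100 CPM of them lin-42 was at 89.5 and 50.7, 134 and 123, and 325 and 357 in the same order, with no overlap between the groups. Of the 7, dpy-7, a collagen that itself cycles with the moults, was called lower over both UM10 groups and on csgA(-) alone. The shares of all genes called lower were 5.25% and 5.11%, and 0 of the 7 were called higher. The list did not fall as a set. Over both UM10 groups 4 of the 7 fold changes were above 0 and 3 below, with a median log2 fold change of 0.098. On csgA(-) alone 3 were above 0 and 4 below, with a median of -0.16. Neither call of dpy-7 was kept in every fit without 1 library. The log2 fold change of dpy-7 ran from -1.90 to -1.29 over both UM10 groups and from -3.02 to -2.035 on csgA(-) in those fits. The part of the moulting phase at collection in the lin-42 difference was not tested.

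Markers of oocytes were measured beside lin-41 and lin-28, on a list chosen with earlier results of these data known. The main edgeR fit over both UM10 groups called neither gene. Of 7 alternative fits that left out no library, 4 called lin-41, among them DESeq2 (adjusted p 0.00404), and 0 called lin-28. All 7 oocyte markers (oma-1, oma-2, puf-5, puf-11, rme-2, cbd-1 and egg-1) were called higher over both UM10 groups, with a median log2 fold change of 2.38. On csgA(-) alone 7 were called higher, and on K12 alone 5. The shares of all genes called higher were 5.07%, 3.95% and 2.2%. Their sum was 2978 and 2088 CPM in UM10 on csgA(-), 1718 and 2996 in UM10 on K12, and 267 and 644 in N2, with no marker at 0 in any library. The count was 0 without N2 replicate 1, both over both UM10 groups and on csgA(-) alone, and on csgA(-) alone it was 0 without csgA(-) replicate 1. On K12 alone it was 0 on leaving out any 1 of the 4 libraries compared, with all 7 fold changes above 0 each time. Within UM10 on K12, replicate 1 had the higher lin-28 level and the lower oocyte sum, and replicate 2 had the higher lin-41 level and the higher oocyte sum. Per 100 CPM of oocyte markers, lin-41 was at 10.8 and 11.9 in UM10 on csgA(-), 7.56 and 11.8 in UM10 on K12, and 21.6 and 15.9 in N2. Against these markers lin-41 was thus lower in all UM10 libraries than in N2, the other way round from its level per library. For lin-28 the values were 0.651 and 0.787, 1.59 and 0.626, and 3.47 and 1.99. The part of oocyte RNA in the levels of lin-41 and lin-28 was not tested.

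Germ line markers, 7 in all, had a summed level of 4022 and 3145 CPM in UM10 on csgA(-), 1934 and 3994 in UM10 on K12, and 918 and 2130 in N2. By edgeR 0 were called, against 10.3% of all genes over both UM10 groups. There all 7 log2 fold changes were above 0, with a median of 1.23. On K12 alone 6 were above 0 and 1 below. The gene cgh-1 is also on the microRNA machinery list. It gave 2058 and 1582 CPM of the sums in UM10 on csgA(-), 988 and 2221 in UM10 on K12, and 499 and 955 in N2. Sperm markers, of which 6 of 7 passed the filter, were at 236 and 208, 116 and 153, and 199 and 181 CPM in the same order of groups. Of these 0 were called, against 10.3% of all genes over both UM10 groups.

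**Figure D4:**
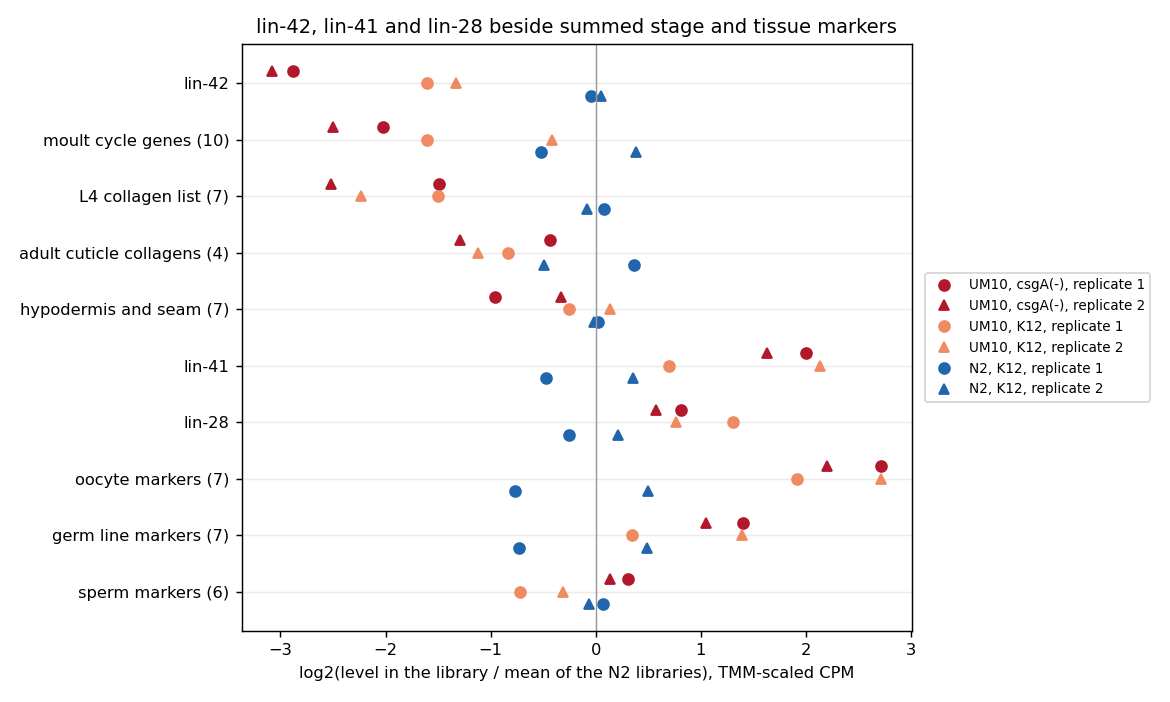
Level of lin-42, lin-41 and lin-28, and summed level of 7 lists of stage and tissue markers (number of genes in brackets), in each library as log2 of its ratio to the mean of the N2 libraries (TMM-scaled CPM). Moulting genes and collagens listed for L4 lie left of 0 with lin-42 in all UM10 libraries, oocyte markers lie right of 0 with lin-41 and lin-28, and the N2 libraries are spread widely for the oocyte, germ line and moulting lists.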

How the data were processed

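Per the labels' protocols, TRIzol RNA of whole L4 animals was enriched for poly-A RNA and converted to cDNA. The authors deposited raw read counts per gene, 1 table per library, without normalization. The submitters' processing notes name STAR 2.7.5, DESeq2 1.28.1 and the build WBcel235. The annotation release and counting settings are not given in the sources used here. The unstranded count was used, since the first of the stranded columns held 48.4% to 49.7% of their sum. Summary lines that name no gene (7.85% to 8.72% of reads) were left out. Gene names, exon lengths and coordinates came from the Ensembl release 115 annotation of WBcel235 (46603 of 46778 identifiers matched).

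Counts were filtered with filterByExpr (minimum count 10, total 15), scaled by TMM and tested by quasi-likelihood in edgeR 4.0.16 (R 4.3.3), on all 6 libraries with 1 term per group. P-values were Benjamini-Hochberg adjusted over 15331 genes per comparison and called under 0.05. In the comparison of both UM10 groups with N2 each UM10 group had equal weight. Standard errors were derived from each log2 fold change and its F statistic. The code of the fit was run on counts simulated with its own estimates of spread, which does not test those estimates on the real libraries. Alternatives were other scalings, DESeq2 1.42.0, no filter, each stranded column, a replicate block, fits on the compared groups alone and leaving out each library.

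All 10 timing genes are named, with 1 nearest gene each. List genes are named if called (at most 4 per comparison) or preset. The members and lists were chosen with earlier results of these data known. The list names bus-8, opt-2 and let-7 were not matched. With no sequence in the reference used here, no sequence or microRNA site is given.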

Additional observations from a re-analysis of the deposited data

How the results depend on the processing

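In refits of single timing genes that left out no library of the groups compared, 288 values kept their direction and their side of the threshold, 18 gained a call, 0 lost one and 4 changed sign. The sign changes were all near 0, for hbl-1 on K12 against N2 with the first stranded column (0.016) and for lin-14 between foods with upper-quartile factors (0.005), the second stranded column (0.025) and the replicate block (0.049). Over both UM10 groups against N2 the count of the 10 genes called was 1, and it was 2 with DESeq2, without the low-count filter and with the first stranded column (lin-41 and lin-42 each time). On csgA(-) against N2 it was 1, and 4 with DESeq2 and without the filter (lin-29, lin-41, lin-42 and blmp-1). On K12 against N2 it was 0, and 2 with DESeq2 and 1 without the filter, and between foods 0, and 1 with DESeq2. Replicate numbers are only numbers here, since the labels tie them to nothing shared and the same-numbered deviations of the 3 pairs of groups correlated at 0.0839, -0.111 and 0.356 across genes. With the replicate block the counts were 3, 4, 0 and 0, in the order both UM10 groups, csgA(-) and K12 against N2, and foods. The genes called with the block were lin-29 (adjusted p 0.041), lin-41 (0.0163) and lin-42 over both UM10 groups, and these and blmp-1 on csgA(-). All genes called moved with the block to 2418, 2434, 845 and 165, against 1582, 1388, 421 and 0. Without the filter they were 2831, 2705, 1333 and 470, and with DESeq2 2659, 2584, 1165 and 243. Upper-quartile factors gave 276 on K12, and between foods the stranded columns gave 1 and 4. Upper-quartile factors also moved the split of calls over both UM10 groups from 777 higher and 805 lower to 583 and 999, on csgA(-) from 605 and 783 to 452 and 920, and the median of all genes over both UM10 groups from -0.04 to -0.188.

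Without 1 library in turn, where a lone sample of a group is assumed to vary like the others, the timing genes called were 1 to 2 over both UM10 groups, 0 to 2 on csgA(-) and 0 to 0 on K12 and between foods. All genes called over both UM10 groups were 49 without N2 replicate 1, 408 without UM10 on K12 replicate 1, 734 without its replicate 2 and 992 without csgA(-) replicate 1. They ranged from 157 to 1544 on csgA(-), 2 to 201 on K12 and 0 to 78 between foods. Signs changed for hbl-1 (-0.71 to 0.042 over both UM10 groups, -0.532 to 0.388 on K12), lin-14 (-0.767 to 0.216 on K12, -0.519 to 0.464 between foods) and, between foods, lin-41 (-0.363 to 0.988), daf-12 (-0.423 to 0.746) and alg-1 (-0.121 to 0.504). The cause of these changes was not tested. The lists and the named list genes without 1 library were examined after seeing the data. With 2 libraries a group, intervals were wide, as that of lin-14 over both UM10 groups (-1.05 to 0.61) shows.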

Other observations

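Markers of other tissues were measured beside the timing genes. Vitellogenins, the yolk proteins that the intestine starts to make as animals become adult, summed to 26683 and 6377 CPM in UM10 on csgA(-), 11306 and 18785 in UM10 on K12, and 41957 and 22437 in N2. Over both UM10 groups vit-1 and vit-4 were called lower of 6, against 5.25% of all genes. The call of vit-1 was lost in 2 of the 6 fits without 1 library and that of vit-4 in 4. Intestinal markers summed to 592 and 708 CPM in UM10 on csgA(-), 1558 and 1859 in UM10 on K12, and 6870.4 and 2487 in N2. The actin of the gut brush border, act-5, gave 5538 of the 6870.4 CPM in N2 replicate 1. It was the 1 of 5 called lower over both UM10 groups, against 5.25% of all genes, with -2.79 as log2 fold change. Without 1 library in turn this ran from -3.37 to -1.91, the last without N2 replicate 1. The call was lost there and without either library of UM10 on K12. Body muscle markers summed to 11058 and 10894 CPM, 6172 and 6475, and 14907 and 11316 in the same order of groups. By edgeR 0 of 6 were called, against 10.3% of all genes over both UM10 groups. On csgA(-) against N2 the markers went both ways, with 2 fold changes above 0 and 4 below. They ran from -1.14 for tnt-2 to 1.13 for myo-3. Neuronal markers, from the cell type of the aex-3 promoter of the transgene, summed to 716 and 661 CPM, 421 and 653, and 731 and 488 in the same order of groups. Expression of the transgene could not be checked. Of the 7 markers 0 were called, against 10.3% of all genes over both UM10 groups. In UM10 on csgA(-) replicate 1 snb-1 alone gave 552 of the 716 CPM. On csgA(-) against N2 its log2 fold change was the 1 above 0, and 6 were below, with a median of -0.29 over the 7.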
